A study of Mus musculus with 4 samples.

Results

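The genes of the enzymes that add N6-methyladenosine (m6A) to RNA and remove it were followed through a YTHDF1 RNA immunoprecipitation experiment (RIP-seq) in the murine hepatocellular carcinoma line Hepa 1-6. They are 10 of the 53465 Ensembl gene IDs in the count table, taken by ID: the 2 core methyltransferase subunits Mettl3 and Mettl14, the 6 associated writer subunits Wtap, Virma, Rbm15, Rbm15b, Zc3h13 and Cbll1, and the 2 erasers Fto and Alkbh5. The study set cells with a guide against Usp5, which encodes a deubiquitinating protease, against cells with a control guide; the labels call the first a Usp5 knockdown and the second wild type. From each line came 1 library of the RNA precipitated with a YTHDF1 antibody and 1 library of the input, so that the 4 groups were the Usp5 guide RIP, the Usp5 guide input, the control RIP and the control input. Both lines are Hepa 1-6 cells, and whether either is a single clone, how the guides were delivered and when cells were taken is not stated in the labels.

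The writer complex works in the nucleus. METTL3 carries the catalytic site and uses S-adenosylmethionine, METTL14 is its partner in the core and helps to hold the RNA, and the associated subunits place the core on its targets. FTO and ALKBH5 are oxygenases that take the methyl group off again, and YTHDF1 is a cytoplasmic protein that binds m6A in mRNA. The experiment therefore reads, for these genes, the recovery of their own transcripts with a reader of the mark that their proteins write or erase.

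The libraries held between 29898171 and 33941019 counts. All 10 genes passed the filter for comparison, a mean CPM (counts scaled to library size) of at least 1 over the 4 libraries, which 12927 genes passed, and they had between 2100 reads (Cbll1) and 52700 reads (Zc3h13) in all. With 1 library per group, neither RIP over input within a line nor Usp5 guide over control was tested. Instead, genes are called higher or lower by size, if they differ by 2-fold or more with a 95% counting interval that leaves out no difference. The interval holds only the error of counting reads, and since the protocol describes PCR and no molecular identifiers, several reads can stem from 1 molecule. Scatter between libraries was therefore measured over genes of low to middling level (log2 CPM, here the log2 of the mean over libraries, from 0 to 6). It was the median squared difference, in units of the counting variance, divided by the median that counting alone would give. The factor was 18.7 between the 2 RIP libraries and 65.0 between the 2 inputs. Intervals from counts divided by these factors (widened intervals) are given as well. Each factor came from libraries that also differ in guide, and genes above log2 CPM 6 did not enter it. The table gives IDs without names and the reference table paired 0 of them, so markers of hepatocytes and Usp5 itself, whose level would check the label of the knockdown, were not analysed here. Levels in CPM are not corrected for transcript length and are compared between libraries, not between genes.

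The 10 genes lay on both sides of no difference in the YTHDF1 precipitate. RIP over input was above 1 in both lines for 4 of them (Virma, Rbm15, Rbm15b and Alkbh5), below 1 in both for 3 (Mettl14, Wtap and Cbll1) and on opposite sides in the 2 lines for 3 (Mettl3, Zc3h13 and Fto), but with library totals Fto was above 1 in both and Wtap on opposite sides. Over all 12927 genes these shares were 37.1%, 35% and 27.3%. In the Usp5 guide line 1 of the 10 genes was at least 2-fold higher in the RIP and 0 were lower, where 15.8% and 13.8% of all genes were. In the control line 1 was higher and 2 were lower, where 18.2% and 15.2% of all genes were. The median log2 RIP over input of the 10 genes was 0.23 in the Usp5 guide line and 0.085 in the control line, beside 0.016 and 0.026 over all genes compared. With 10 genes, counts of 0 to 2 are near the shares over all genes. Scaling by library totals, which moved the median of all genes to 0.15 in the Usp5 guide line and 0.21 in the control line, gave 3 higher and 0 lower genes in each line, and the calls of Mettl14 and Cbll1 in the control line ended there (log2 -0.98 and -0.84). With that scaling 2432 of 12920 genes were higher and 1425 lower in the Usp5 guide line. In the control line 2958 were higher and 1496 lower.

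**Figure D1:**
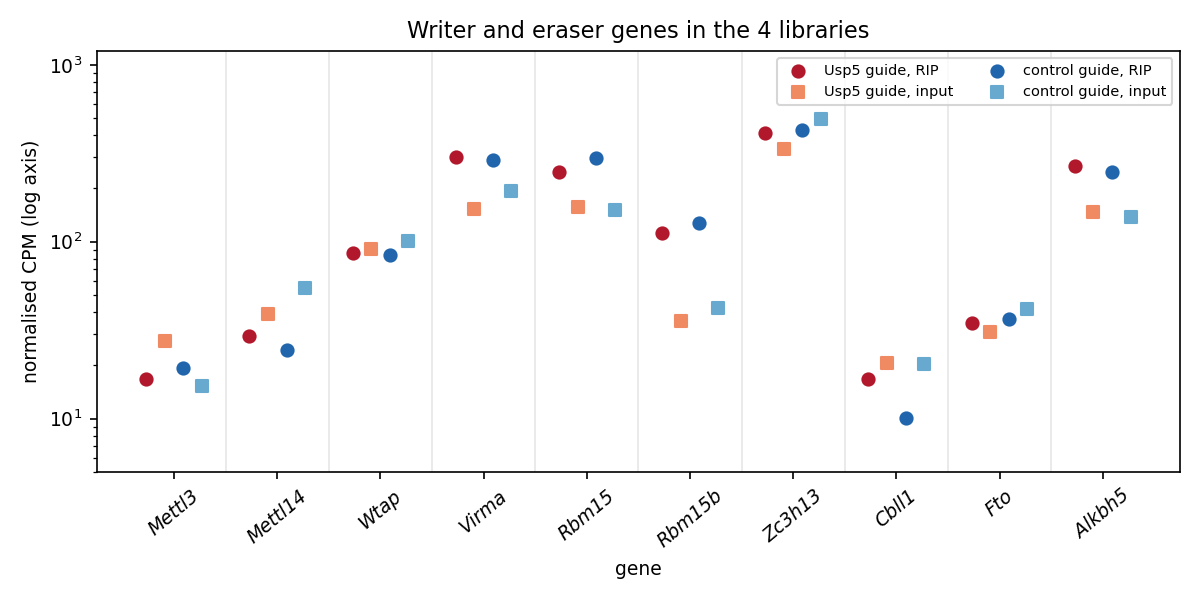
Normalised CPM of each writer and eraser gene (log axis) in the Usp5 guide RIP, Usp5 guide input, control RIP and control input, 1 point per library. For Virma, Rbm15, Rbm15b and Alkbh5 both RIP points lie above both input points. Within a line, RIP over input of these genes is largest for Rbm15b in the Usp5 guide line (112 against 35.5 CPM). It is smallest for Virma in the control line (290 against 193 CPM).

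Rbm15b (ENSMUSG00000074102), an RNA-binding adaptor that brings the writer complex to its targets, was the most enriched of the 10 in both YTHDF1 precipitates. It had 112 CPM in the RIP and 35.5 CPM in the input of the Usp5 guide line, and 128 CPM in the RIP and 42.1 CPM in the input of the control line. Both RIP libraries were thus about equally far above their inputs. RIP over input was 3.14-fold in the Usp5 guide line (counting interval 2.94 to 3.37) and 3.04-fold in the control line (2.86 to 3.25). It was at least 2-fold higher in both lines, as were 6.71% of all genes. Its enrichment was also ranked among the 3059 genes with a log2 CPM from 6 to 9. It stood at percentile 99.7 in the Usp5 guide line and 99.0 in the control line. That class rests on the mean over all 4 libraries, which the RIP itself raised. By its input CPM alone Rbm15b would fall in the class from 4 to 6. Log2 RIP over input spread more widely there (SD 0.80 and 0.90 in the Usp5 guide and control lines, against 0.69 and 0.77). These percentiles therefore depend in part on the enrichment itself, and a rank by input level was not computed. With widened intervals Rbm15b was still past the 2-fold rule in both lines, with log2 intervals of 0.93 to 2.47 and 0.92 to 2.37. So were 4.33% of all genes in the Usp5 guide line and 5.69% in the control line.

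Rbm15 (ENSMUSG00000048109), its paralog with the same role, was enriched less. It had 248 CPM in the RIP and 157 CPM in the input of the Usp5 guide line, and 298 CPM in the RIP and 151 CPM in the input of the control line. The inputs differed little and the control RIP was the highest library. The enrichment was 1.57-fold in the Usp5 guide line (1.52 to 1.63) and 1.98-fold in the control line (1.91 to 2.05), just short of the rule. Set against each other within a library, there were 0.451 Rbm15b reads per Rbm15 read in the Usp5 guide RIP and 0.226 in its input, and 0.429 in the control RIP and 0.279 in its input.

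Virma (ENSMUSG00000040720), the large scaffold subunit of the associated complex, had 299 CPM in the RIP and 153 CPM in the input of the Usp5 guide line. In the control line it had 290 CPM in the RIP and 193 CPM in the input. The 2 RIP libraries were close and the Usp5 guide input was the lowest library. RIP over input was 1.96-fold in the Usp5 guide line (1.89 to 2.03) and 1.51-fold in the control line (1.46 to 1.56).

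The remaining associated subunits were not enriched past the rule in either line. Wtap (ENSMUSG00000060475), which keeps the core in nuclear speckles, had 86.7 CPM in the RIP and 91.3 CPM in the input of the Usp5 guide line, and 84.4 and 101.0 CPM in those of the control line. Its log2 RIP over input was -0.075 (-0.15 to 0.0010) and -0.26 (-0.33 to -0.18), and scaling by library totals turned the first to 0.054. Zc3h13 (ENSMUSG00000022000), a zinc finger protein known from mouse embryonic stem cells to hold the complex in the nucleus, had 410 CPM in the RIP and 334 CPM in the input of the Usp5 guide line, and 430 and 493 CPM in those of the control line. The control input was the highest library, and the log2 RIP over input was 0.29 (0.26 to 0.33) and -0.20 (-0.23 to -0.17). Cbll1 (ENSMUSG00000020659), a ubiquitin ligase also called Hakai, had 16.7 CPM in the RIP and 20.7 CPM in the input of the Usp5 guide line, against 10.0 and 20.3 CPM in those of the control line. The control RIP stood below the other 3 libraries, and only in the control line did the ratio pass the rule, at 2.03-fold lower (log2 -1.02, -1.21 to -0.83). The widened interval there was -2.24 to 0.31 and included no difference.

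Of the core subunits, both were below input in the RIP of the Usp5 guide line, and in the control line Mettl14 was below and Mettl3 above it. Mettl14 (ENSMUSG00000028114) had 929 reads (29.3 CPM) in the RIP and 1200 reads (39.0 CPM) in the input of the Usp5 guide line. The control line had 874 reads (24.5 CPM) in the RIP and 1570 reads (55.0 CPM) in the input, so both RIP libraries lay below both inputs. RIP over input was 1.33-fold lower in the Usp5 guide line (log2 -0.41, -0.54 to -0.29) and 2.24-fold lower in the control line (log2 -1.17, -1.29 to -1.05). The control value was past the rule with the widened interval too (-1.91 to -0.39), as were 7.53% of all genes.

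Mettl3 (ENSMUSG00000022160) had 532 reads (16.8 CPM) in the RIP and 844 reads (27.4 CPM) in the input of the Usp5 guide line, and 690 reads (19.3 CPM) in the RIP and 435 reads (15.2 CPM) in the input of the control line. The Usp5 guide input was the highest of the 4 libraries and the control input the lowest, with both RIP libraries between them. The log2 RIP over input was -0.71 in the Usp5 guide line (-0.87 to -0.55) and 0.34 in the control line (0.17 to 0.52). Both widened intervals, -1.70 to 0.36 and -0.86 to 1.79, included no difference.

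The erasers differed from each other. Alkbh5 (ENSMUSG00000042650), a nuclear demethylase of m6A in mRNA, had 269 CPM in the RIP and 146 CPM in the input of the Usp5 guide line, and 248 CPM in the RIP and 138 CPM in the input of the control line. Both RIP libraries were above both inputs, 1.84-fold in the Usp5 guide line (1.77 to 1.91) and 1.79-fold in the control line (1.72 to 1.86). Fto (ENSMUSG00000055932), which also demethylates the methylated adenosine next to the cap, had 34.6 CPM in the RIP and 30.7 CPM in the input of the Usp5 guide line, and 36.7 and 41.5 CPM in those of the control line. Its log2 RIP over input was 0.18 (0.05 to 0.30) and -0.17 (-0.29 to -0.06), and scaling by library totals turned the control value to 0.0083. There were 0.129 Fto reads per Alkbh5 read in the Usp5 guide RIP and 0.210 in its input, and 0.148 in the control RIP and 0.299 in its input.

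**Figure D2:**
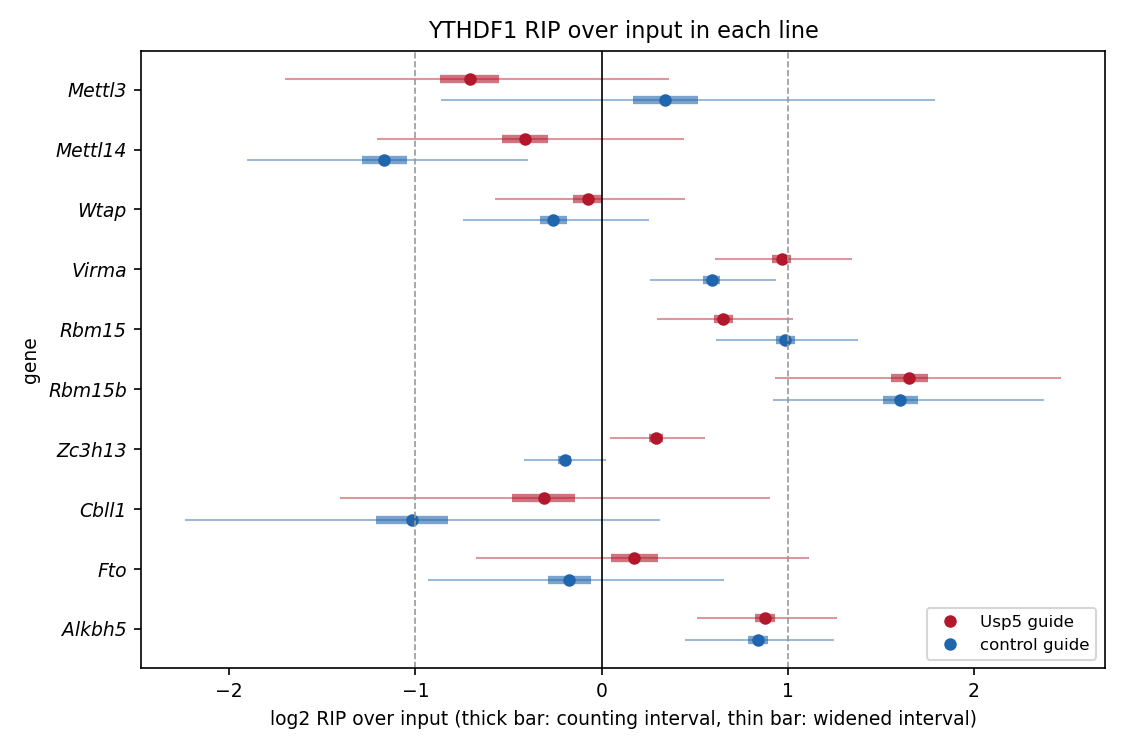
Log2 RIP over input of each gene in the Usp5 guide line (red, upper) and the control line (blue, lower), with the 95% counting interval (thick bar) and the interval widened by the scatter between libraries (thin bar). Dashed lines mark 2-fold. Rbm15b lies past 2-fold in both lines at 1.65 and 1.61, and the points of Mettl3, at -0.71 and 0.34, lie on opposite sides of no difference.

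RIP against input can be tested across the lines by fitting fraction and line together. The quasi-likelihood test of edgeR was run on 4 libraries, which leaves 1 residual degree of freedom, with Benjamini-Hochberg adjustment over 12927 genes. The test borrows spread from other genes, so its p-values and SEs do not rest on the spread of each gene alone. Of the 10 genes 4 were higher in the RIP at an adjusted p under 0.05 and 0 were lower, where 10.1% and 11.3% of all genes were. All 4 were above their input in 2 of 2 lines. They also lie in the higher of the classes by log2 CPM, and the shares over all genes depend on level. With a mean of at least 5 CPM, 1665 of 9919 genes were higher and 1755 lower. Shares in this test among genes of like level were not computed, so 4 of 10 cannot be read as an excess for the set. With all 12927 genes, Rbm15b was higher by 1.63 on the log2 scale (SE 0.19, adjusted p = 0.000509). Alkbh5 was higher by 0.86 (SE 0.14, adjusted p = 0.00253), Rbm15 by 0.82 (SE 0.15, adjusted p = 0.00415) and Virma by 0.78 (SE 0.15, adjusted p = 0.00535). By edgeR's unadjusted p-value under 0.05, 4 genes were higher and 1 lower, where 16.4% and 17.3% of all genes were. That 1 was Mettl14, at log2 -0.79 (SE 0.28, edgeR's adjusted p = 0.0709). DESeq2 also called 4 higher and 0 lower after adjustment. Cbll1 at log2 -0.66 (adjusted p = 0.241), Mettl3 at -0.18 (adjusted p = 0.779), Wtap at -0.17 (adjusted p = 0.584), Zc3h13 at 0.048 (adjusted p = 0.860) and Fto at 0.00040 (adjusted p = 0.999) missed the threshold.

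The test was also fitted with 1 library left out at a time, which leaves no room for the line as a term. Each such fit has a fraction with 1 library, assumed to vary like the other fraction, whose 2 libraries carry different guides and alone give the spread. In these fits Rbm15b was called in 4 of 4 (edgeR's quasi-likelihood test, adjusted p between 6.41e-05 and 0.0172). Virma lost it without the Usp5 guide RIP (adjusted p = 0.0879) and without the control RIP (0.0756), Alkbh5 without the Usp5 guide RIP (0.0690) and Rbm15 without the control RIP (0.117). Mettl14 was called lower without the Usp5 guide input (adjusted p = 0.00278). Over all genes these 4 fits called between 677 and 5152 genes, against 2769 with all libraries. No precipitate with a control antibody was used here, so recovery with YTHDF1 and recovery with the beads cannot be told apart.

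**Figure D3:**
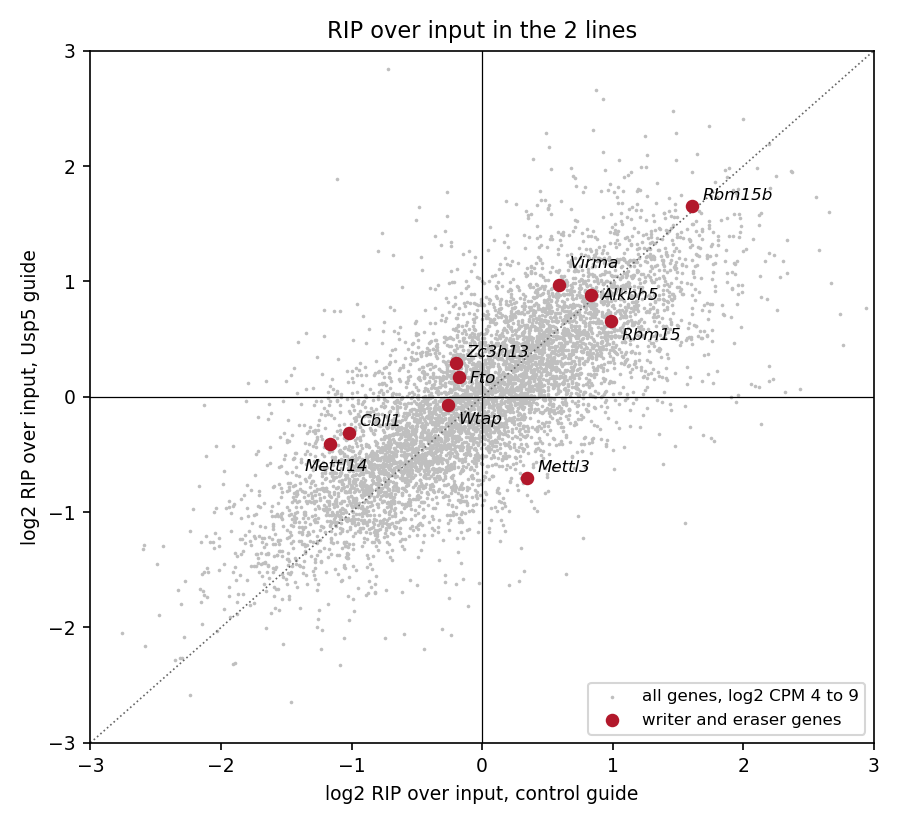
Log2 RIP over input in the Usp5 guide line (vertical axis) against the control line (horizontal axis) for 6847 genes with a log2 CPM from 4 to 9 (grey, 22 of them outside the axes) and for the 10 writer and eraser genes (red). Rbm15b lies at the upper end on the dotted line of equal values, and Mettl3 lies below that line, at 0.34 in the control line and -0.71 in the Usp5 guide line.

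Between the inputs, which reflect the RNA of the cells, none of the 10 genes differed by 2-fold between the Usp5 guide and the control, where 24.6% of all genes did. In bulk RNA fewer cells with a transcript and less of it per cell cannot be told apart. That share falls with depth. It was 8.34% of the 3788 genes with a log2 CPM from 4 to 6, which hold Mettl3, Mettl14, Cbll1 and Fto, and 0.817% of the 3059 genes between 6 and 9, which hold the other 6. The median log2 ratio of the 10 genes was -0.19, beside -0.0072 over all genes compared.

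The furthest of the 10 from no difference was Mettl3, with 27.4 CPM in the Usp5 guide input and 15.2 CPM in the control input, 1.80-fold higher (log2 0.85, 0.68 to 1.02). It stood at percentile 93.1 of the genes between log2 CPM 4 and 6, and its widened interval of -0.60 to 2.45 included no difference. Mettl14 was 1.41-fold lower in the Usp5 guide input (log2 -0.50, -0.61 to -0.39), at percentile 17.9 of the same class. Zc3h13, with 10288 reads in the Usp5 guide input and 14079 in the control input, was 1.48-fold lower (log2 -0.56, -0.60 to -0.52). It was the only one of the 10 whose widened interval excluded no difference (-0.87 to -0.26), which 4.7% of all genes did, and it stood at percentile 5.82 of the genes between log2 CPM 6 and 9.

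The other input ratios were smaller. Fto was 1.35-fold lower (log2 -0.43, -0.56 to -0.31), Virma 1.26-fold lower (log2 -0.33, -0.39 to -0.28) and Rbm15b 1.18-fold lower (log2 -0.24, -0.36 to -0.13) in the Usp5 guide input. The log2 ratios of Wtap, Rbm15, Cbll1 and Alkbh5 lay between -0.15 and 0.078.

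In the RIP libraries, compared directly, the 10 genes also stayed under 2-fold, where 9.17% of all genes passed it. The median log2 ratio was -0.015, beside -0.0056 over all genes compared. By depth, 0.924% of the genes between log2 CPM 4 and 6 and 0.0654% of those between 6 and 9 passed it. Cbll1 was the furthest from no difference, with 528 reads (16.7 CPM) in the Usp5 guide RIP and 357 reads (10.0 CPM) in the control RIP, 1.66-fold higher (log2 0.73, 0.54 to 0.93). It stood at percentile 98.5 of the genes between log2 CPM 4 and 6, with a widened interval of -0.15 to 1.66, while its inputs were at 20.7 CPM (Usp5 guide) and 20.3 CPM (control).

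Rbm15 was 1.20-fold lower in the Usp5 guide RIP (log2 -0.27, -0.31 to -0.23). It was the only one of the 10 whose widened interval there excluded no difference (-0.45 to -0.083), which 8.76% of all genes did. Among the genes between log2 CPM 6 and 9, which did not enter the widening factor, it stood at percentile 10.2. Mettl14 was 1.20-fold higher in the Usp5 guide RIP (log2 0.26, 0.12 to 0.39) and Mettl3 1.15-fold lower (log2 -0.20, -0.37 to -0.039), each on the other side from its input ratio. The log2 ratios of the other 6 lay between -0.20 and 0.12. For 7 of the 10 genes the inputs differed more than the RIP libraries, and for 5 the 2 ratios had opposite signs, where 68.3% and 47.1% of all genes did, which is near these counts.

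**Figure D4:**
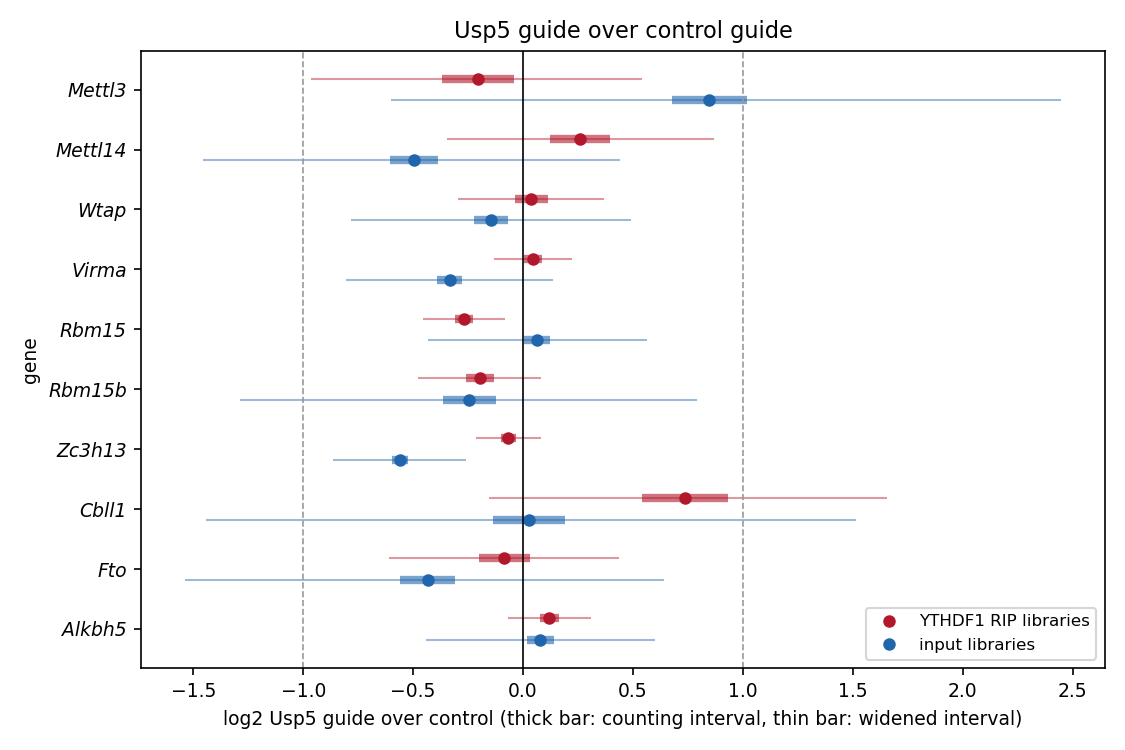
Log2 ratio of the Usp5 guide over the control guide in the YTHDF1 RIP libraries (red, upper) and in the inputs (blue, lower) for each gene, with counting intervals (thick bar) and widened intervals (thin bar). No point passes the dashed lines at 2-fold; Mettl3 in the inputs (0.85) and Cbll1 in the RIP libraries (0.73) come nearest.

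Whether recovery with YTHDF1 differed between the lines was read from the ratio of the 2 enrichments. For 1 of the 10 genes, Mettl3, it was at least 2-fold lower in the Usp5 guide line, and for 0 it was higher, where 13.8% and 13.4% of all genes were. In the class between log2 CPM 4 and 6 these shares were 5.76% and 5.54%. The enrichment of Mettl3 was 2.07-fold lower in the Usp5 guide line than in the control line (log2 -1.05, -1.28 to -0.82). Its log2 ratio was -0.20 between the RIP libraries and 0.85 between the inputs, which makes up the larger piece of this value. The widened interval was -2.51 to 0.45.

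Mettl14 and Cbll1 went the other way, with enrichments 1.69-fold (log2 0.75, 0.58 to 0.93) and 1.63-fold (log2 0.71, 0.45 to 0.96) higher in the Usp5 guide line. Zc3h13 was 1.41-fold higher (log2 0.49, 0.44 to 0.54) and was the only one of the 10 whose widened interval excluded no difference (0.16 to 0.82), which 5.11% of all genes did. It has the most reads of the 10, and it stood at percentile 90.7 of the genes between log2 CPM 6 and 9, which did not enter the widening factor. The enrichments of Rbm15b and Alkbh5 differed least, with log2 ratios of 0.047 (-0.088 to 0.18) and 0.041 (-0.035 to 0.12). Scaling with library totals turned them to -0.0062 and -0.012.

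METTL3 and METTL14 act as a pair, and the ratio of their reads within a library does not depend on normalisation. There were 0.573 Mettl3 reads per Mettl14 read in the Usp5 guide RIP (counting interval 0.514 to 0.638) and 0.703 in the Usp5 guide input (0.643 to 0.769). The control RIP had 0.789 (0.713 to 0.873) and the control input 0.277 (0.249 to 0.308). The control input was the lowest of the 4, and the other 3 lay between 0.573 and 0.789. The read ratio was therefore 2.54-fold higher in the Usp5 guide input than in the control input, but 1.38-fold lower in the Usp5 guide RIP than in the control RIP. Widened intervals were not computed for these read ratios. Between the inputs the widened log2 intervals of Mettl3 (-0.60 to 2.45) and Mettl14 (-1.45 to 0.44) both included no difference. With 1 library each, differences between libraries and between conditions cannot be told apart.

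The profiles over the 4 libraries, as centred log2 CPM, were closest for Zc3h13 and Fto (Euclidean distance 0.10) among the 45 pairs of the 10 genes. Rbm15 and Alkbh5 (0.28), Wtap and Fto (0.28), Virma and Alkbh5 (0.31) and Virma and Rbm15 (0.36) followed. Among all genes with a log2 of the mean CPM no lower than 5, the 3 nearest to Alkbh5 lay at distances of 0.038 to 0.045 and the 3 nearest to Mettl3 at 0.10 to 0.15. Alkbh5 (log2 CPM 7.65) lies within that range and Mettl3 (4.30) below it, so no gene of the level of Mettl3 was searched and the distances are not alike. The nearest to Mettl3, ENSMUSG00000021254, had 1004 reads in the Usp5 guide RIP and 1472 in its input, and 1291 in the control RIP and 830 in its input. It is not named, since the table does not pair IDs with names.

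In the RefSeq annotation of GRCm38.p6, the assembly of the mm10 build used for the counts, 6 of the 10 loci overlap another gene. Mettl3 (chromosome 14, 52294841 to 52308741) shares 669 bases with Tox4. Rbm15 (chromosome 3, 107305511 to 107334460) shares 6605 bases with Slc16a4, and Rbm15b (chromosome 9, 106880928 to 106887075) shares 65 bases with Dcaf1. Zc3h13 (chromosome 14, 75284306 to 75344433) shares 370 bases with a pseudogene. Cbll1 (chromosome 12, 31484829 to 31500676) and Fto (chromosome 8, 91313367 to 91668433) share 1057 and 17152 bases with a long noncoding RNA each. These are overlaps of whole gene spans, introns included, and overlap of exons was not measured. No source used here says whether reads were counted by strand, so reads in bases shared by exons of both genes, if any, may be lost or assigned to the other gene. Mettl14 (chromosome 3, 123368295 to 123385990), Wtap (chromosome 17, 12966799 to 12992543), Virma (chromosome 4, 11485958 to 11551143) and Alkbh5 (chromosome 11, 60537683 to 60558512) overlap none.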

How the data were processed

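RNA of Hepa 1-6 cells was sequenced in 4 libraries, the YTHDF1 RIP and the input (10% of the lysate, per the labels' protocols) of cells with a Usp5 guide and with a control guide. The authors deposited raw read counts per Ensembl gene ID, made with HISAT2 2.1.0 and featureCounts 1.6.3 on mm10, per the submitters' processing notes. Handling of strand, multiple matches and duplicates: not given in the sources used here.

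Counts were scaled with TMM factors (edgeR 4.0.16, R 4.3.3), and 0.5 counts, weighted by library size, were added before taking log2 ratios. Clopper-Pearson intervals were computed for the share of a gene's reads in 1 of 2 libraries, and for the ratio of enrichments the interval follows from the summed reciprocal counts. For widened intervals, counts were first divided by the scatter between libraries. DESeq2 1.42.0, other scalings, filters and folds were run as alternatives, and the code was tested on simulated data. Each line gave 1 lysate, so the guide was not tested. All 10 genes are named throughout, by the names given with their IDs. The 10 genes, lists and tests were chosen with earlier results of these data known. Lists of other pathway genes and cell type markers need names and were not analysed here.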

Additional observations from a re-analysis of the deposited data

Results flagged for a closer look

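For 3 genes RIP over input lay on opposite sides of no difference in the 2 lines, with 1 library in each group, and the difference between the lines was not tested. The log2 RIP over input of Mettl3 was -0.71 in the Usp5 guide line and 0.34 in the control line. For Zc3h13 the values were 0.29 in the Usp5 guide line and -0.20 in the control line. For Fto they were 0.18 in the Usp5 guide line and -0.17 in the control line. Opposite signs were seen for 27.3% of all genes compared.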

How the results depend on the processing

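The number of the 10 genes past the 2-fold rule depended on scaling and threshold. With library totals, which moved the median log2 RIP over input of all genes to 0.15 in the Usp5 guide line and 0.21 in the control line, 3 genes were higher in each line (Virma, Rbm15b and Alkbh5 in the Usp5 guide line, and Rbm15, Rbm15b and Alkbh5 in the control line) instead of 1, and 0 instead of 2 were lower in the control line. Among the genes that passed the rule, the higher ones made up 63.1% there in the Usp5 guide line and 66.4% in the control line (53.4% and 54.5% with TMM). Among those called in the test over both lines they made up 63.5% (47.4% with TMM). With library totals 2432 of 12920 genes were higher in the Usp5 guide line and 2958 in the control line. Widened intervals left 1 gene lower in the control line and 0 with a lower ratio of enrichments. A log2 CPM of 5 or more, which keeps 8 of the 10, gave the same counts only because it removed Mettl3 and Cbll1 (log2 CPM 4.30 and 4.08). It changed no log2 ratio of the 8 kept. At 1.5-fold, 4 of the 10 were higher and 1 was lower in the Usp5 guide line, where 3492 and 3244 of all 12927 genes were. In the control line 4 were higher and 2 were lower, where 3789 and 3463 of all genes were. At the same fold 1 of the 10 was higher in the inputs, 1 in the RIP libraries and 2 by the ratio of enrichments, where 2577, 1229 and 2681 of all genes were. By the ratio of enrichments 1 was lower, as were 2802 of all genes. With DESeq2 size factors, upper-quartile factors or 2 counts added, none of these counts of the 10 moved by over 1.5 times. Over all genes, in the order Usp5 guide RIP over input, control RIP over input, inputs, RIP libraries and ratio of enrichments, 3829, 4323, 3180, 1186 and 3512 genes passed the rule. Widened intervals gave 1334, 1709, 171, 143 and 247, a mean of at least 5 CPM 2090, 2593, 1288, 227 and 1527, a log2 CPM of 5 or more 809, 1085, 114, 9 and 157, 10 reads in all 6990, 7478, 5616, 4180 and 5045, and 1.5-fold 6736, 7252, 5170, 2505 and 5483. In the test over both lines, without the line (guide) as a block 4 of the 10 were still called higher and 0 lower, and Fto, at 0.00040 with it, was at -0.015. It was at -0.022 with DESeq2's test and at -0.028 with DESeq2 size factors. A mean of at least 5 CPM added 1 lower gene, Mettl14 (edgeR's quasi-likelihood test, adjusted p = 0.0329, where over its alternatives it ranged from 0.00278 to 0.428). Leaving out 1 library at a time gave 2 to 4 higher and 0 to 1 lower genes, with Mettl3 between -0.60 and 0.25, Zc3h13 between -0.23 and 0.33 and Fto between -0.22 and 0.22. The cause was not tested.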
